A study of Mus musculus with 16 samples.

Results

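The 10 genes described here encode acute phase proteins: the serum amyloids Saa1, Saa2 and Saa3, the orosomucoids Orm1, Orm2 and Orm3, haptoglobin (Hp), hemopexin (Hpx), lipocalin 2 (Lcn2) and the lipopolysaccharide-binding protein (Lbp). They were picked by symbol, from probe sets annotated to that gene alone, and each gene was represented by its probe set with the highest mean over all arrays. All 10 were among the 13577 genes tested. Acute phase proteins are plasma proteins that hepatocytes make in larger amounts after injury or infection. Interleukin 6, acting through STAT3, and interleukin 1 and tumour necrosis factor, acting through NF-kB and C/EBP factors, are the textbook inducers, and the response is known to follow partial hepatectomy, the surgical removal of part of the liver. Albumin is the classical protein that falls when these rise.

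Liver RNA was measured on 16 expression arrays, 1 for each of 4 arms on days 0, 2, 7 and 14 after partial hepatectomy. MET_KO_canertinib mice had exon 16 of Met, the receptor of hepatocyte growth factor, deleted by a tamoxifen-inducible recombinase and were fed canertinib, an inhibitor of the EGFR family of receptors, with 80 mg/kg as the aim. MET_FLOX_canertinib mice received the same diet without the deletion, MET_KO mice had the deletion without the drug, and MET_FLOX mice had neither. Every arm carries one genotype label, Metff/ff:ERCre+/+, and one strain background, 129SV/C57BL/6, so the recombinase was present in all mice. The deletion was systemic and not limited to hepatocytes, and animal ages are not given in the sources used here. Nor do those sources say how long the diet was given before day 0, whether the MET_FLOX arms received tamoxifen, or whether an array held RNA of 1 mouse or of a pool. With 1 array per arm and day, the days of an arm stand in for replicates in the model of arm and day used below. Its p-values rest on how arm differences vary between days. That variation mixes differences in time course, spread between livers and technical spread. No probe set here checks the deletion, so genotypes stand as labelled.

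Values are MAS5 signals, scaled by the authors to a trimmed mean of 500 on every array. A level of one gene was not set against that of another, though summed marker signals weigh bright genes most. The array medians formed a low set of 6 arrays (156.4 to 188.7), namely MET_KO and MET_FLOX on days 0, 2 and 7, and a high set of 10 arrays (244 to 265). All 8 canertinib arrays lay in the high set, so on days 0, 2 and 7 the drug and the array set cannot be told apart. The ratio of 3′ to 5′ Gapdh signal, a sign of RNA quality, was 0.950 to 2.24 on canertinib arrays and 0.765 to 0.869 on the others, and its part in the drug differences below was not tested. The highest value, 2.24, was that of MET_FLOX_canertinib on day 14, ahead of 1.52 on day 7 of that arm. The defining markers of hepatocytes were above the array median on all 16 arrays: the summed signal of 9 such genes was 296832 to 441625 in MET_KO_canertinib, 470002 to 509767 in MET_FLOX_canertinib, 155410 to 379820 in MET_KO and 211147 to 366175 in MET_FLOX.

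On RefSeq build GRCm38.p6 the serum amyloid genes lie on chromosome 7, with Saa3 at chr7:46711998-46719615, Saa1 at chr7:46740497-46743181 and Saa2 at chr7:46751833-46754313, and Hpx lies on the same chromosome at chr7:105591611-105600116. The orosomucoid genes lie on chromosome 4, with Orm1 at chr4:63344556-63348163, Orm3 at chr4:63356069-63359506 and Orm2 at chr4:63362449-63365877. Lcn2 is at chr2:32384637-32387739 and Lbp at chr2:158306493-158332852 on chromosome 2, and Hp is at chr8:109575128-109579172 on chromosome 8. Promoter sequences of that build were at hand for 7 of the 10 genes, and 5 are shown to let genes with like signals be compared. Saa1, Saa2 and Lcn2 had one course, though the signals of Saa1 and Saa2 cannot be told apart. Saa3 had another course, and Hpx followed albumin. Each run below holds the 250 bases before a transcript start, 5′ to 3′ on the gene's own strand. Capitals mark matches to TTGCNNAA, a form of the C/EBP site, on either strand. The Saa3 window lies inside the gene span given above, as do parts of the windows of Saa1 and of Orm3, which is not shown. For these genes the transcript used starts within the span and not at its outer end. Saa1 is at chr7:46742981-46743230 (minus strand), Saa2 at chr7:46751583-46751832 (plus strand), Saa3 at chr7:46715677-46715926 (minus strand), Lcn2 at chr2:32387740-32387989 (minus strand) and Hpx at chr7:105600117-105600366 (minus strand).
Saa1: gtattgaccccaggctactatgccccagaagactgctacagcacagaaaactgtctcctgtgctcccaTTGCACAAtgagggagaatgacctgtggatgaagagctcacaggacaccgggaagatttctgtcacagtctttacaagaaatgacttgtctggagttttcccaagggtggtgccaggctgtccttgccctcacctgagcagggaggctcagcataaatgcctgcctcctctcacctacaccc
Saa2: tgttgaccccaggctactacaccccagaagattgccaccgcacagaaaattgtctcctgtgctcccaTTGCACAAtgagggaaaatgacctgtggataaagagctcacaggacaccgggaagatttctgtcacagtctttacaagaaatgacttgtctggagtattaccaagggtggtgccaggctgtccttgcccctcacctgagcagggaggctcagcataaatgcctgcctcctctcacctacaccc
Saa3: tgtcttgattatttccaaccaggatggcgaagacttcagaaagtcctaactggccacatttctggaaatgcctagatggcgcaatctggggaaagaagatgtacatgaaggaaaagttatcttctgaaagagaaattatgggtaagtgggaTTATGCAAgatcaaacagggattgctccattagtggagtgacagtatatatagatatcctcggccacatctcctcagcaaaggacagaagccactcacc
Lcn2: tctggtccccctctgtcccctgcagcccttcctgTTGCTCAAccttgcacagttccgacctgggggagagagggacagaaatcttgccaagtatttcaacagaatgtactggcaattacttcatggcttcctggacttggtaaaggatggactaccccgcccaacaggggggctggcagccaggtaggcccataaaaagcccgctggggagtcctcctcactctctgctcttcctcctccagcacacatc
Hpx: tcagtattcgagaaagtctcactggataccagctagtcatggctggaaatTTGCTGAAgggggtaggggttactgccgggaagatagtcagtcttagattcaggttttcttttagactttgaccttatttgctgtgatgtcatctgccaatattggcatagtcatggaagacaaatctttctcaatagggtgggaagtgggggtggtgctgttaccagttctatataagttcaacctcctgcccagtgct

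All 7 promoters, those of Orm2 and Orm3 included, held this motif at 1 position, against 9.55% of the 27025 mouse promoters of the same length. Saa1 and Saa2 are read in opposite directions. Their promoters were 94.8% identical (238 of 251 aligned columns) and shared the site TTGCACAA, at position -182 in Saa1 and -183 in Saa2, counted back from the transcript start. The promoters of Orm2 and Orm3 were 85.9% identical, and their sites were TTGCGCAA and TTGCACAA. All other pairs of promoters were 49.3% to 55.1% identical, those of Saa3 and Lcn2 with Saa1 included. The letters TTCNNNGAA (a STAT site, in 7.18% of all promoters), GGG and TTTCC with 2 bases between them (an NF-kB site, 1.4%) and CTGGGAA (9.08%) were found on neither strand of the 7 windows, while TATAAA (13%) was found in Orm2 and Orm3. These are matches of letters and nothing more was measured at these sites.

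Saa1 and Saa2 encode the serum amyloids that hepatocytes secrete and that travel on high-density lipoprotein. The Saa1 signal on days 0, 2, 7 and 14 was 61208, 83644, 79341 and 96670 in MET_KO_canertinib and 94050, 85540, 61574 and 17872 in MET_FLOX_canertinib. Without the drug it was 1977, 22070, 43645 and 17638 in MET_KO and 5524, 30896, 54346 and 48335 in MET_FLOX. Both drug-free arms had their highest signal on day 7, still below both canertinib arrays of day 0, and 7 of the 8 canertinib arrays lay above all 8 arrays without it. The exception was MET_FLOX_canertinib on day 14. Saa2 had 36250, 47886, 45261 and 63388 in MET_KO_canertinib and 54256, 56937, 17941 and 3644 in MET_FLOX_canertinib. Its signals were 629, 11343, 32822 and 4160 in MET_KO and 1489, 22824, 50649 and 29879 in MET_FLOX. For this gene both canertinib arrays lay above both drug-free arrays on days 0 and 2, and the pairs overlapped on days 7 and 14. The Saa1 probe set is built on a transcript that RefSeq assigns to Saa2, the same transcript as that of the Saa2 probe set. Signals of these near-identical genes cannot be told apart. A second Saa1 probe set, built on a Saa1 transcript, ranged from 3066 to 85690 and likewise had 7 of 8 canertinib arrays above all others.

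Lcn2 encodes an iron-siderophore-binding protein made by hepatocytes in the acute phase and stored in neutrophil granules. It had the widest range of the 10 genes, 174-fold over the 16 arrays. Its signals were 27336, 52305, 42408 and 83663 in MET_KO_canertinib and 68801, 46342, 27773 and 7616 in MET_FLOX_canertinib. In the arms without the drug they were 481, 17547, 34852 and 4172 in MET_KO and 1260, 20413, 43482 and 10112 in MET_FLOX. On day 0 the canertinib livers exceeded their drug-free partners 56.9-fold in the knockout pair and 54.6-fold in the flox pair, and on day 7 the same ratios were 1.22 and 0.639. In both drug-free arms Lcn2 was lowest before the operation and highest on day 7, and on day 14 it stood 3.08 (MET_KO) and 2.99 (MET_FLOX) above day 0 on the log2 scale, whereas MET_KO_canertinib stayed high throughout and MET_FLOX_canertinib was lower at each later day.

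Saa3 encodes a serum amyloid that macrophages, adipocytes and other cells outside the hepatocyte make as well. Its signals were 4340, 9966, 5532 and 25464 in MET_KO_canertinib and 4726, 2365, 2087 and 1528 in MET_FLOX_canertinib. Without canertinib it had 575, 346, 1707 and 812 in MET_KO and 1179, 955, 2547 and 3715 in MET_FLOX. Every MET_KO_canertinib array lay above every MET_KO and MET_FLOX array, by 1.69 to 4.94 on the log2 scale against MET_KO of the same day and by 1.11 to 3.36 against MET_FLOX. Of the 10 genes, Saa1 and Saa3 had this complete separation from the drug-free arms, which 2.41% of all genes showed.

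**Figure D1:**
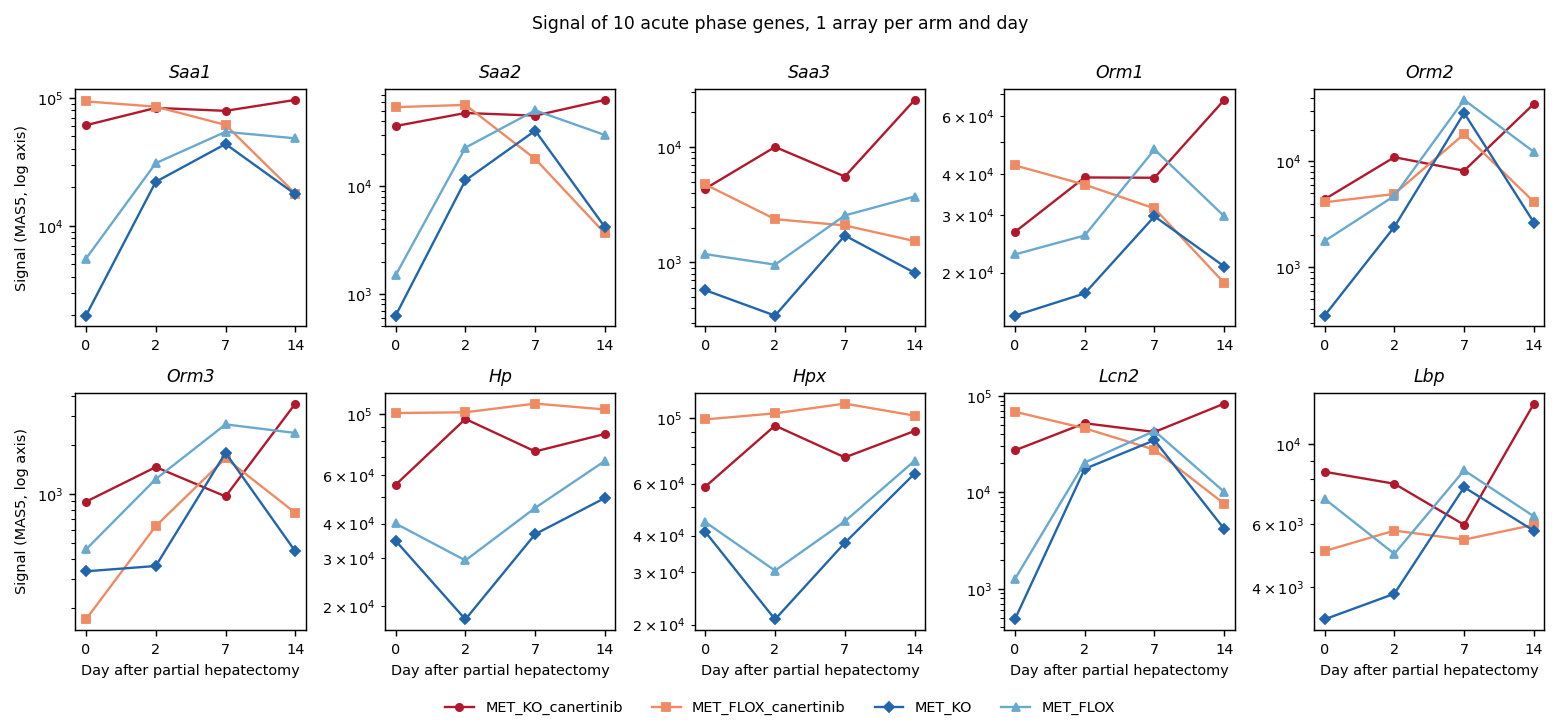
MAS5 signal on a log axis for each of the 10 genes against the day after partial hepatectomy (days 0, 2, 7 and 14), with 1 array per point and 1 line per arm, MET_KO_canertinib, MET_FLOX_canertinib, MET_KO and MET_FLOX. Saa1, Saa2 and Lcn2 start high in both canertinib arms (Lcn2 at 27336 and 68801) and low in the drug-free arms (481 and 1260). On day 7 the arms overlap for Saa2 and Lcn2. For Saa1 both canertinib arrays (79341 and 61574) are then still above both drug-free arrays (43645 and 54346).

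The orosomucoids are lipocalins that bind drugs and lipids in plasma and dampen inflammation. Orm1, the most evenly expressed, had 26599, 39001, 38917 and 67196 in MET_KO_canertinib and 42448, 37088, 31387 and 18597 in MET_FLOX_canertinib, against 14796, 17290, 29688 and 20884 in MET_KO and 22728, 25964, 47451 and 29705 in MET_FLOX. The arms overlapped, and the whole range was 4.54-fold. Orm2 behaved otherwise, with a 109-fold range and its highest level in 3 of the 4 arms on day 7. It had 4391, 10964, 8171 and 35008 in MET_KO_canertinib and 4112, 4926, 18142 and 4145 in MET_FLOX_canertinib. The drug-free values were 350, 2407, 28670 and 2646 in MET_KO and 1770, 4720, 38136 and 12305 in MET_FLOX. On day 7 both canertinib arrays were therefore below both drug-free arrays, the reverse of days 0 and 2. Only in MET_KO_canertinib was day 7 not the peak.

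Orm3, the third orosomucoid of the mouse cluster, peaked on day 7 in the same 3 arms. It had 896, 1460, 965 and 3573 in MET_KO_canertinib and 170, 635, 1652 and 765 in MET_FLOX_canertinib, against 336, 362, 1785 and 444 in MET_KO and 457, 1233, 2666 and 2361 in MET_FLOX. The lowest and the highest array of this gene were both on canertinib. MET_FLOX_canertinib was below MET_FLOX on all 4 days, with log2 differences of -0.68 to -1.61, and MET_KO_canertinib was above MET_KO on days 0, 2 and 14 only.

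Haptoglobin binds free haemoglobin and hemopexin binds free haem, and both spare iron and limit oxidative damage in plasma. Hp had 55343, 96047, 73181 and 84719 in MET_KO_canertinib and 100927, 101556, 109240 and 104018 in MET_FLOX_canertinib. Its signals were 34660, 17943, 36620 and 49582 in MET_KO and 40032, 29390, 45626 and 67642 in MET_FLOX. In both canertinib arms each array exceeded its drug-free partner of the same day, by 0.62 to 2.42 on the log2 scale. Hpx ran alike, from 58544 to 94259 in MET_KO_canertinib and from 98918 to 111890 in MET_FLOX_canertinib, against 20820 to 64866 in MET_KO and 30438 to 71678 in MET_FLOX. In both drug-free arms their lowest signal fell on day 2. These were the 2 of the 10 genes that separated the array sets: Hp was 49582 to 109240 on the high set and 17943 to 45626 on the low set. Of all genes 15.8% separated the sets, in one direction or the other.

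Lbp encodes the plasma protein that hands bacterial lipopolysaccharide to CD14. Its range was the narrowest, 4.00-fold, with 8381, 7760, 5958 and 12991 in MET_KO_canertinib and 5032, 5741, 5416 and 5960 in MET_FLOX_canertinib, against 3244, 3824, 7587 and 5732 in MET_KO and 7044, 4944, 8459 and 6290 in MET_FLOX. The arms overlapped, and the day 14 array of MET_KO_canertinib was the highest, ahead of MET_FLOX on day 7.

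Over the 8 canertinib arrays against the 8 arrays without the drug, 5 of the 10 genes were higher and none was lower, by limma on log2(signal + 16) with arm and day as terms and Benjamini-Hochberg adjustment over all 13577 genes. The background was high, as 24.0% of all genes were called higher. Of the 4699 genes called in either direction 69.3% were higher, and with each array centred on its median the share was 18.5% of 5053. Most genes called after centring were thus lower, and the centred counts of the gene lists below stand against that background. Lcn2 differed by 2.23 (SE 0.67, adjusted p = 0.022), Saa3 by 2.003 (SE 0.38, adjusted p = 0.00366) and Saa1 by 1.81 (SE 0.51, adjusted p = 0.0159). Hp differed by 1.23 (SE 0.22, adjusted p = 0.0028) and Hpx by 1.11 (SE 0.22, adjusted p = 0.00403). Saa2, at 1.78, had an adjusted p of 0.0658, and Orm1, Orm2, Orm3 and Lbp gave 0.53, 0.79, 0.11 and 0.28 with adjusted p of 0.0918 to 0.819, where Orm3 and Lbp turned to -0.27 and -0.10 after centring. The median of the 10 genes was 1.17, against 0.14 for all genes.

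Leaving out single arrays ended the call of Lcn2 in 2 cases, without MET_KO on day 0 (1.77, adjusted p = 0.0501) and without MET_FLOX on day 0 (1.90, adjusted p = 0.0517). It also added calls: Saa2 without MET_FLOX_canertinib on day 14 (2.26), MET_KO on day 7 (2.12) or MET_FLOX on day 14 (2.09), Orm1 without MET_FLOX_canertinib on day 14 (0.69), and Orm2 without MET_KO_canertinib on day 7 (1.25). Quantile normalization gave 0.60 for Hp and 0.39 for Hpx, and neither Saa1 (1.27, adjusted p = 0.102) nor Lcn2 (1.91, adjusted p = 0.0513) was called. When a term for the array set was added, the day 14 arrays alone gave the drug difference, and none of the 10 genes was called (Saa1 0.51, Saa3 1.84, Hp 0.70, Hpx 0.49 and Lcn2 1.96, adjusted p of 0.366 to 0.894), while 15 of all genes were (0.110%) and 1706 had an unadjusted p below 0.05. Without the 4 day 0 arrays, a check added after the values were seen, Saa3 (1.86), Hp (1.31) and Hpx (1.20) were still called, while Saa1, at 0.91 (adjusted p = 0.0995), and Lcn2, at 1.05 (adjusted p = 0.12), were not.

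**Figure D2:**
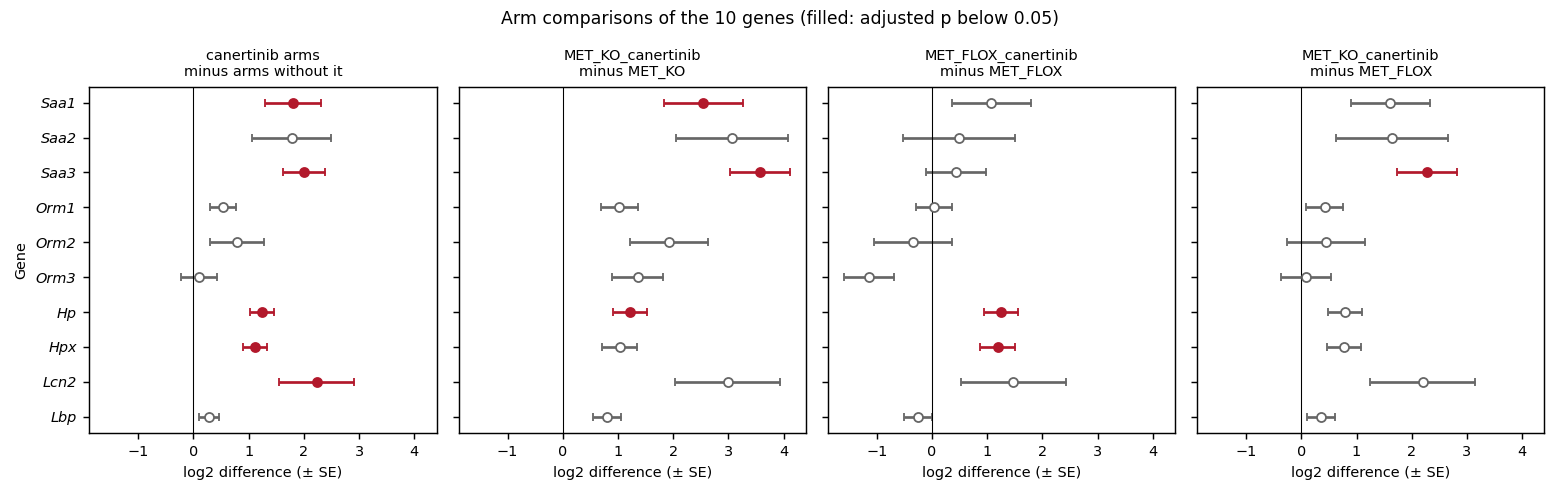
Log2 differences with standard errors for the 10 genes in 4 comparisons of arms, from limma with arm and day as terms; filled points have an adjusted p below 0.05. Filled points number 5, 3, 2 and 1 from left to right, and Saa3 is filled wherever MET_KO_canertinib or both canertinib arms are set against arms without the drug.

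By genotype, MET_KO_canertinib against MET_KO called 3 of the 10 genes higher (4 arrays against 4, 5.84% of all genes higher). Saa3 differed by 3.57 (SE 0.54, adjusted p = 0.0147), Saa1 by 2.54 (SE 0.72, adjusted p = 0.0447) and Hp by 1.22 (SE 0.31, adjusted p = 0.036). The other 7 had adjusted p of 0.0532 to 0.085 and differences of 0.80 for Lbp to 3.07 for Saa2, and the median of the 10 was 1.64, against 0.15 for all genes. Leaving out each of the 16 arrays in turn kept the call of Saa3 in 15 cases (not without MET_KO_canertinib on day 2), that of Hp in 9 and that of Saa1 in 4. Without the MET_KO_canertinib day 7 array Orm2 (2.85), Orm3 (1.996) and Lbp (1.08) were called too. On that array these genes lay below MET_KO of the same day (-1.81, -0.88 and -0.35). Leaving it out thus removes the day that ran the other way. Saa2 (3.07) and Lcn2 (2.99) were called without MET_FLOX_canertinib on day 0 or on day 14, Orm1 (1.02) without the second of these, and Hpx without the day 14 array of MET_KO_canertinib, MET_FLOX_canertinib or MET_KO (1.03 to 1.19). In 7 of the 10 genes, all but Orm2, Orm3 and Lbp, MET_KO_canertinib was above MET_KO on all 4 days, which 21.2% of all genes also showed. Against MET_FLOX, the other drug-free arm, MET_KO_canertinib called Saa3 alone, at 2.28 (SE 0.54, adjusted p = 0.0422), with 1.74% of all genes called higher, and this call held in 5 of the 16 fits without 1 array.

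MET_FLOX_canertinib against MET_FLOX called Hp, at 1.25 (SE 0.31, adjusted p = 0.0371), and Hpx, at 1.19 (SE 0.31, adjusted p = 0.0416), with 4.04% of all genes higher. These calls held in 9 and 6 of the 16 fits without 1 array. No serum amyloid, orosomucoid or lipocalin was called there: Saa3 gave 0.43 (adjusted p = 0.618), Lcn2 1.47 (adjusted p = 0.306) and Orm3 -1.14 (adjusted p = 0.116). Without the MET_KO_canertinib day 7 array, which leaves that estimate as it was, Orm3 was called lower (adjusted p = 0.0499). Whether the drug difference itself depended on the genotype was tested as an interaction, and none of the 10 genes was called, nor were more than 2 of all genes (0.0147%). The largest values were 3.14 for Saa3 (SE 0.77, adjusted p = 0.425), 2.58 for Saa2 (SE 1.43, adjusted p = 0.99996) and 2.50 for Orm3 (SE 0.65, adjusted p = 0.571), and 4 of the 10 had an unadjusted p below 0.05. In the fit without the MET_KO_canertinib day 7 array the interaction of Orm3 was called (3.14, adjusted p = 0.031). Calls made in one genotype and not in the other are thus not shown to differ. The interaction call of Orm3 came from leaving out the array on which its knockout pair ran the other way (-0.88). It therefore does not settle the question for this gene.

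The 2 comparisons of knockout with flox made no call. Under the drug, MET_KO_canertinib against MET_FLOX_canertinib gave a median of 0.67 for the 10 genes, with 0.00737% of all genes called. Saa3 at 1.85 had the lowest unadjusted p by limma (0.00408, adjusted p = 0.889), and 3 of the 10 lay below 0.05 before adjustment. Hp and Hpx gave -0.46 and -0.42, negative on each of the 4 days, and -0.06 and 0.01 after quantile normalization. Without the drug, all 10 genes were below MET_FLOX in MET_KO, on each of the 4 days, which 7.81% of all genes showed. The estimates ran from -0.26 for Hpx to -1.47 for Orm2 (SE 0.70), with an adjusted p of 0.9999 for each by limma. No gene at all was called there by limma (0%), and 350 had an unadjusted p below 0.05, where 679 would be expected by chance. Saa3 (-1.30, unadjusted p = 0.031 by limma) and Orm3 (-1.27, unadjusted p = 0.0145 by limma) were among these.

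Day by day, with 1 array per arm and no test of its own, the drug comparison ran as follows. On day 0 both canertinib arrays exceeded both drug-free arrays in 8 of the 10 genes, which 37.1% of all genes did, and on day 2 in 9 (44.6%). On day 7 this held in 3 of the 10 (40.7%) and on day 14 in 2 (21.5%), Hp and Hpx. The median drug difference of the 10 genes was 1.70, 1.54, -0.14 and 0.61 on days 0, 2, 7 and 14, against 0.13, 0.24, 0.17 and 0.01 for all genes.

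**Figure D3:**
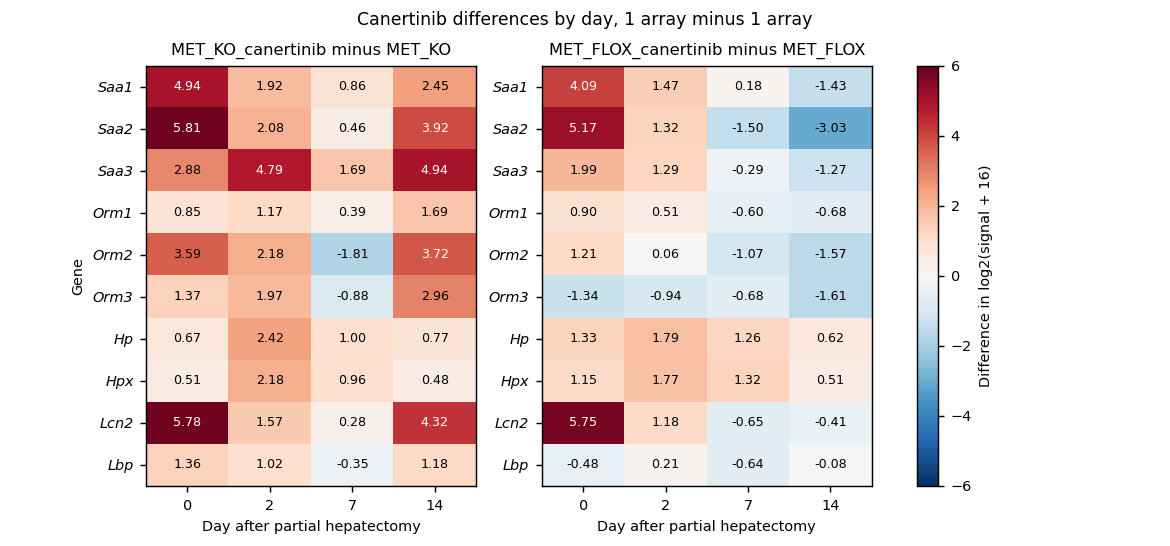
Differences in log2(signal + 16) between 1 canertinib array and 1 drug-free array of the same day for the 10 genes, in the knockout pair (MET_KO_canertinib minus MET_KO) and the flox pair (MET_FLOX_canertinib minus MET_FLOX). Lcn2 stands at 5.78 on day 0 and 0.28 on day 7 in the knockout pair, and at 5.75 and -0.65 in the flox pair, and on day 14 the knockout pair is positive in all 10 genes while the flox pair is positive in 2.

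In the drug-free arms day 7 lay above day 0 for Saa1, Saa2, Lcn2, Orm2 and Orm3, by 2.36 to 6.29 on the log2 scale in MET_KO and by 2.50 to 5.09 in MET_FLOX. In MET_KO_canertinib day 7 minus day 0 was 0.37, 0.32 and 0.63 for Saa1, Saa2 and Lcn2, and in MET_FLOX_canertinib it was -0.61, -1.60 and -1.31. The difference between these day 7 changes, with canertinib arms against arms without it, was -5.95 for Lcn2 (SE 1.14), -6.01 for Saa2 and -3.99 for Saa1. This comparison was chosen after the values were seen, and with 6 residual degrees of freedom none of the 10 genes was called (adjusted p of 0.178 for Lcn2, 0.243 for Saa2 and 0.239 for Saa1) and 1 of all genes was (0.00737%). Each arm's day 0 and day 7 arrays lie in one array set, so a constant offset between the sets drops out of this contrast. The canertinib changes come from the high set and the drug-free changes from the low set. A drug effect on these changes and a difference in scale between the sets therefore cannot be told apart. The contrast depended on the day 14 arrays through the residual spread. Without the MET_KO_canertinib day 14 array, or without that of MET_FLOX_canertinib, the same estimates were called for all 3 genes (adjusted p = 0.0155 in the first case and 0.0175 to 0.0182 in the second). For the change between day 0 and day 14, which does cross the sets in the drug-free arms, the contrast was -4.00 for Saa1 (adjusted p = 0.0926), -5.05 for Saa2 (adjusted p = 0.117) and -3.81 for Lcn2 (adjusted p = 0.138), with 0.140% of all genes called. Without the MET_KO_canertinib day 14 array these were -5.27, -7.02 and -5.63 and all called, and without that of MET_FLOX_canertinib Saa1 alone was (-2.74, adjusted p = 0.0297).

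Averaged over the 4 arms, no day differed from day 0 by a called amount in any of the 10 genes (backgrounds of 0.383%, 0.00737% and 0.0810% of all genes on days 2, 7 and 14). The unadjusted p was below 0.05 for 3, 5 and 2 of them. Orm2 on day 7, at 3.44 (SE 0.70, adjusted p = 0.485), and Orm3, at 2.03 (SE 0.46, adjusted p = 0.604), were higher in 4 of 4 arms. Without the MET_KO_canertinib day 7 array both were called, at 4.36 for Orm2 and 2.67 for Orm3 (adjusted p = 0.00507 for each by limma). That arm, where neither gene peaked on day 7, had the smallest day 7 changes of the 4 arms (0.89 for Orm2 and 0.11 for Orm3). Leaving its array out raises the estimates, so these calls are no further evidence of a rise.

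On day 14 the canertinib arms parted. MET_KO_canertinib was the highest of the 4 arrays in 8 of the 10 genes, all but Hp and Hpx, against 31.7% of all genes. In 7 of those 8, all but Orm2, it was the highest of all 16 arrays too. The share of all genes highest on this array was not counted, and its median signal, 265, was the highest of the 16. MET_FLOX_canertinib on day 14 had the lowest signal of its own arm in Saa1, Saa2, Saa3, Orm1 and Lcn2, again with no share of all genes counted. That array had the highest 3′ to 5′ Gapdh ratio of the 16, at 2.24, and the part of RNA quality in these low signals was not tested. The neutrophil marker S100a8 and the gene Cd14 were high on the same MET_KO_canertinib array. S100a8 had 368, 4349, 468 and 22731 in MET_KO_canertinib and 188 to 1114 elsewhere, and Cd14, the lipopolysaccharide co-receptor, had 979, 3911, 840 and 15722 in MET_KO_canertinib. The summed signal of the 10 neutrophil markers was 7171 to 51372 in MET_KO_canertinib, 6575 to 14033 in MET_FLOX_canertinib, 4715 to 10935 in MET_KO and 5470 to 21660 in MET_FLOX, with no marker at 0. Such a sum follows its brightest genes, and not all markers peaked on the MET_KO_canertinib day 14 array. Ngp, S100a8, S100a9, Mpo, Elane, Mmp8 and Mmp9 did, while Ltf, Csf3r and Lyz2 did not. Lyz2 had 3729 there, against 14446 in MET_FLOX on day 14, and Csf3r had 829, against 928. Of the 10 neutrophil markers, 6 were higher in the canertinib arms, against 24.0% of all genes (2 higher and 1 lower after centring, 3 higher after quantile normalization). Of 8 adipocyte markers 3 were tested, and Retn, which encodes the adipokine resistin, was called higher in the canertinib arms at 1.09 (adjusted p = 0.0125), also after centring (0.71) and quantile normalization (0.83). The others, Lpl at 0.40 (adjusted p = 0.23 by limma) and Fabp4 at -0.29 (adjusted p = 0.495 by limma), were not called. Retn had 660 to 922 in the canertinib arms and 188 to 348 in the drug-free arms on days 0, 2 and 7. On day 14 it had 737 in MET_KO_canertinib and 678 in MET_FLOX_canertinib, against 1147 in MET_KO and 1018 in MET_FLOX. Retn thus separated the array sets without overlap. Once the fit allowed for the array set, its drug difference turned to -0.60 (adjusted p = 0.31 by limma). Its day 14 change, which crosses the sets in the drug-free arms, was called lower with canertinib (-2.15, adjusted p = 0.0485 by limma). The higher Retn signal therefore cannot be told apart from the array set. The part of neutrophils and adipocytes in the differences of Lcn2 and Saa3 was not tested. In tissue RNA a change in the number of cells of a type and a change in RNA per cell cannot be told apart.

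Over the 16 arrays some of the genes formed groups that move together, given here as a description, since the arrays share arms, days and array sets. Pearson correlations of log2 signal were 0.97 for Saa1 with Saa2, 0.96 for Saa1 with Lcn2 and 0.96 for Saa2 with Lcn2, and 0.98, 0.98 and 0.95 after each array set was centred. The probe sets used for Saa1 and Saa2 are built on the same transcript, so their correlation does not show that separate genes move together. Hp and Hpx correlated at 0.99 with each other and at 0.99 with Alb, the gene of albumin (0.97, 0.96 and 0.96 within sets). Between the groups the values were lower: 0.53 for Saa1 with Hp (0.13 within sets), 0.48 for Saa1 with Hpx (-0.05), 0.40 for Lcn2 with Hp (0.15), 0.37 for Saa2 with Hp (0.10), and 0.53 for Saa1 with Alb (0.07) and 0.38 for Lcn2 with Alb (0.07). Other members did not fall cleanly into these groups. Orm1 correlated at 0.81 with Saa1, 0.80 with Lcn2 and 0.53 with Hp (0.78, 0.76 and 0.43 within sets). Saa3 correlated at 0.86 with Orm1, 0.71 with Saa1 and 0.68 with Hp (0.86, 0.56 and 0.39 within sets). Hp ranged 6.09-fold over the 16 arrays and Hpx 5.37-fold.

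**Figure D4:**
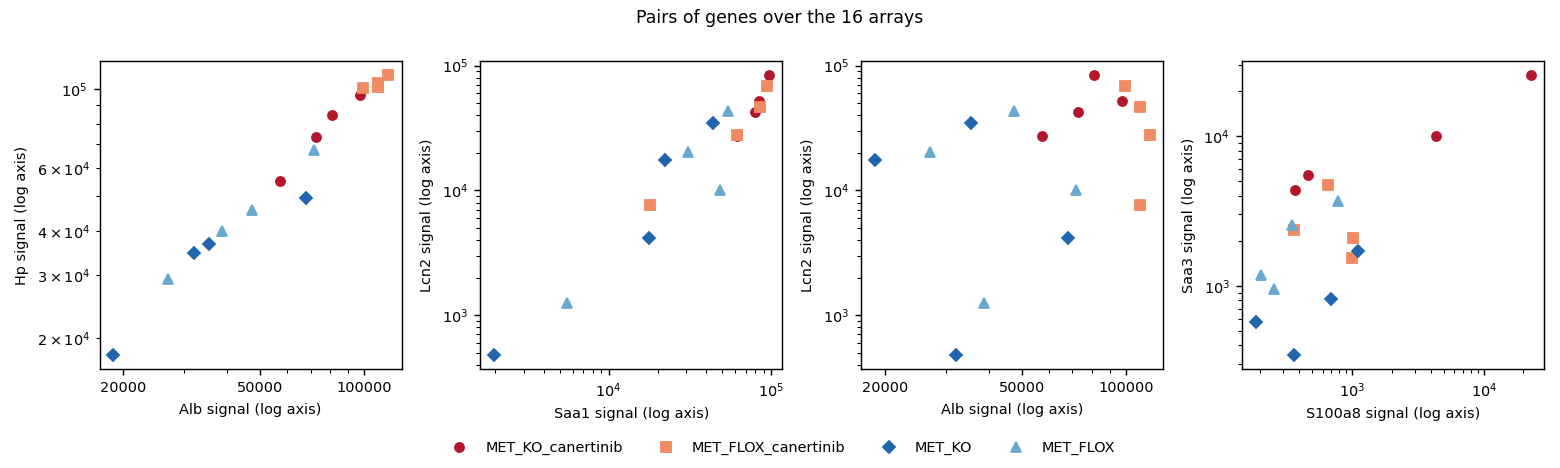
Signals of pairs of genes over the 16 arrays on log axes, 1 point per array and 1 colour and marker per arm: Hp against Alb, Lcn2 against Saa1, Lcn2 against Alb, and Saa3 against S100a8. The first 2 panels are close to straight lines (correlations of 0.99 and 0.96 on the log2 scale), the third is not (0.38), and in the fourth 2 arrays of MET_KO_canertinib, days 2 and 14, stand apart.

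The genes outside the 10 whose profile was most like their mean were Lrg1, a secreted glycoprotein of the acute phase, at a correlation of 0.89 over 16 arrays, Hmox1, the haem-degrading enzyme, at 0.88, Calml3 and Evpl, both at 0.88, and Chil1 at 0.85. Nearest to Saa3 were Ctcflos at 0.90, Lrrc3b at 0.90 and Bmper at 0.89. Nearest to Lcn2 were Calml3 at 0.85, Lrg1 at 0.82 and Lrrc75a at 0.82. Nearest to Hp were the protease inhibitor gene Serpina1c at 0.99, Alb at 0.99 and the plasma adhesion protein gene Vtn at 0.98, and nearest to Hpx were Serpina1c at 0.996, Alb at 0.99 and the selenium carrier gene Selenop at 0.98.

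Of 24 other acute phase genes, 20 were measured and 12 were higher in the canertinib arms, with none lower and a median of 0.75. Of all genes 24.0% were called higher and 10.6% lower. The count was 4 higher and 1 lower after median centring and 9 higher after quantile normalization. Lrg1 was higher by 1.12 (adjusted p = 0.0036), Itih4 and Itih3, of the inter-alpha-trypsin inhibitor family, by 1.03 and 0.95, the liver-secreted fibrinogen-like gene Fgl1 by 1.02, and the protease inhibitor gene Serpina3n by 1.41 (adjusted p = 0.0251). The fibrinogen chain genes Fga, Fgb and Fgg were higher by 0.65, 0.71 and 0.68, while quantile normalization gave -0.08, 0.02 and 0.02, with no call. Crp gave -0.31, with no call, and was the 1 gene called lower after centring (-0.69, adjusted p = 0.00681). Hamp, which encodes the iron hormone hepcidin, at -0.29, and Cfb, at 0.02 (-0.36 after centring), were not called. Serpina3n had 15104, 34508, 21961 and 54757 in MET_KO_canertinib and 45531, 21206, 9871 and 4119 in MET_FLOX_canertinib, against 6257, 7252, 15841 and 4410 in MET_KO and 6357, 6587, 18092 and 4100 in MET_FLOX. That is the course of Saa1 and Lcn2, with high canertinib livers on day 0, a drug-free peak on day 7 and a fall to the drug-free level in MET_FLOX_canertinib on day 14. In MET_KO_canertinib against MET_KO 5 of the 20 were higher (5.84% of all genes), among them Lrg1 (1.41) and Fgl1 (1.35), and in MET_FLOX_canertinib against MET_FLOX none was called (4.04% of all genes higher), with a median of 0.71 in both comparisons.

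**Figure D5:**
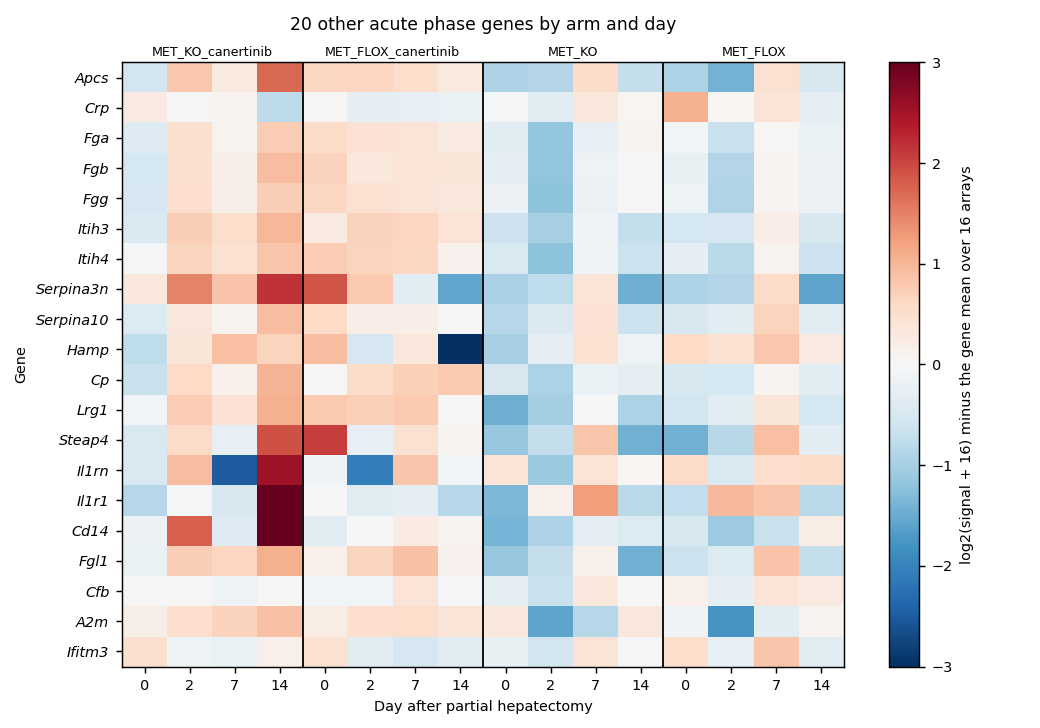
Log2(signal + 16) of 20 other acute phase genes on the 16 arrays, each gene centred on its own mean, with arms as blocks and days 0, 2, 7 and 14 within them; colours run from blue (lower) to red (higher) and end at 3 in either direction. Serpina3n and Steap4 are red on day 0 of MET_FLOX_canertinib and day 14 of MET_KO_canertinib, and Fga, Fgb and Fgg are pale to blue in the drug-free arms.

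Among 12 genes of plasma proteins that classically fall in the acute phase, 10 were measured, and 5 were higher in the canertinib arms and none was lower. Of all genes 24.0% were higher and 10.6% lower. Centring, under which most called genes were lower, gave 2 higher and 3 lower of the 10, and quantile normalization 1 higher. Alb was higher by 1.23 (SE 0.23, adjusted p = 0.00358), the apolipoprotein gene Apoa1 by 0.92, the thyroxine carrier gene Ttr by 0.77 and Apoa2 by 0.60, which was -0.13 after quantile normalization. Alb had 56977, 97576, 72550 and 80625 in MET_KO_canertinib and 99691, 110086, 117413 and 110032 in MET_FLOX_canertinib, against 32031, 18701, 35404 and 67901 in MET_KO and 38769, 27047, 47336 and 71474 in MET_FLOX. Genes of both classes were thus higher together on the deposited scale, and Alb, like Hp and Hpx, separated the array sets without overlap.

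Of 28 genes of interleukin 6 and interleukin 1 signalling, 23 were tested, and 7 were higher and 2 lower in the canertinib arms. These counts are near the shares of all genes, 24.0% higher and 10.6% lower. After centring, under which most called genes were lower, the counts were 1 and 4, and after quantile normalization 6 and 0. Nfkb2, an NF-kB subunit, was higher by 1.57 (adjusted p = 0.00317), its inhibitor gene Nfkbia by 0.57, the cytokine gene Osm by 0.95, Stat3 by 0.61, the interleukin 6 receptor gene Il6ra by 0.69 and Il1b by 0.70. The kinase gene Jak1 was lower, at -0.53 (adjusted p = 0.0101), and so was the shared receptor subunit gene Il6st, at -0.46 (adjusted p = 0.0448). Socs3, the feedback inhibitor that STAT3 induces, had 795, 1722, 856 and 4798 in MET_KO_canertinib and 3027, 370, 987 and 720 in MET_FLOX_canertinib, against 210, 527, 1369 and 469 in MET_KO and 368, 608, 1469 and 367 in MET_FLOX. Its difference of 1.10 was not called (adjusted p = 0.0898), and its highest arrays, MET_FLOX_canertinib on day 0 and MET_KO_canertinib on day 14, were the highest for Steap4 among the other acute phase genes as well.

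Receptors and partners of the 10 proteins were read from 12 measured genes, of which 7 were higher and 1 lower in the canertinib arms (1 and 2 after centring, 1 and 0 after quantile normalization). The shares of all genes were 24.0% higher and 10.6% lower. Slc22a17, a receptor of lipocalin 2, was higher by 0.75 (adjusted p = 0.00392), the endocytic receptor gene Lrp2 by 0.82, the lipopolysaccharide receptor gene Tlr4 by 0.67 and Fpr2, a receptor of serum amyloid, by 0.71. Slc22a17, Lrp2 and Tlr4 each separated the array sets without overlap. On day 14, where all arrays lie in the high set, Lrp2 was lower with the drug. It had 787 in MET_KO_canertinib and 831 in MET_FLOX_canertinib, against 1159 in MET_KO and 1408 in MET_FLOX. In the same order Tlr4 had 516 and 583 against 519 and 804, and Slc22a17 had 1176 and 975 against 845 and 954. Scarb1, the high-density lipoprotein receptor gene, differed by -0.39 (adjusted p = 0.0239 by limma). Cd163, which takes up the haptoglobin-haemoglobin complex, gave 0.14 (adjusted p = 0.818, and -0.24 after centring). Neutrophil granule genes were higher too, Ngp by 1.20 (adjusted p = 0.00324 by limma), Mpo by 0.96, Ltf by 0.97 and Mmp8 by 0.74. Ngp and Mpo separated the array sets without overlap. On day 14 Mpo had 1754 in MET_KO_canertinib and 525 in MET_FLOX_canertinib, against 684 in MET_KO and 752 in MET_FLOX. In the same order Mmp8 had 1100 and 465 against 662 and 502. On that day Ngp and Ltf were higher on both canertinib arrays than on both others. Centring kept the calls of Ngp (0.82) and Mpo (0.58) but not those of Ltf (0.59, adjusted p = 0.0835) and Mmp8 (0.36, adjusted p = 0.134), and it called Lyz2 lower (-0.88, adjusted p = 0.0201). Quantile normalization kept Ngp, Mpo and Ltf of the 10 markers and not Mmp8 (adjusted p = 0.0967). None of the 12 macrophage and Kupffer cell markers was called, with a median of -0.12. Centring, under which most called genes of the whole array were lower, called 4 of these 12 markers lower. Their summed signals were 17851 to 47217 in MET_KO_canertinib, 19921 to 79226 in MET_FLOX_canertinib, 15088 to 43996 in MET_KO and 28186 to 58860 in MET_FLOX. With the array set as a term no gene of any of these lists was called.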

How the data were processed

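Total RNA of mouse liver was hybridised to Affymetrix arrays from 6 ug per array, per the labels' protocols. The deposited values are linear signal intensities, 1 per probe set, which the authors made with MAS5, per the submitters' processing notes. The MAS5 version is not given here. After trimming 2% of probe sets at either end, the mean was 500 on every array. The number of arrays limits the precision, and detection calls were not used here.

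Of 45101 probe sets, 64 controls were left out, 34945 named 1 gene, 932 several and 9160 none. Probe sets with 1 gene were used. The Entrez IDs of 34741 matched RefSeq and 0 symbols changed. Probe sets above their array's median on at least 4 of 16 arrays were kept (22317), and each of 13577 genes was represented by its brightest one. All 10 genes passed that filter. Values of log2(signal + 16) were fitted by arm and day with limma 3.58.1 (R 4.3.3), whose variances followed an intensity trend. This left 9 residual degrees of freedom. Days pair the arrays of the arms, per the labels. Two-sided p-values were Benjamini-Hochberg adjusted over all genes, and an adjusted p below 0.05 counts as called. Differences run as arm named first minus the other, and errors are standard errors of the model (SE). The array set, split at a median signal of 216.35, was added as a term in a further fit with 8 degrees of freedom.

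The fit was tested on simulated data with known changes. The 10 genes, the lists and the tests were chosen with earlier results of these data known. From each list up to 4 called genes with the smallest adjusted p were named for a comparison. Serpina3n, Steap4, Fga, Fgb, Fgg, Crp, Hamp, Cfb, Stat3, Il6ra, Il1b, Il6st, Socs3, S100a8, Cd14, Lyz2, Fpr2 and Cd163 were named after their values were seen. Alternatives were other pseudocounts (1 and 64), no filter, centring, quantile normalization, the mean of a gene's probe sets, no intensity trend, no day term, and leaving out arrays. Promoters were RefSeq sequences of 250 bases before a transcript start, searched on both strands.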

Additional observations from a re-analysis of the deposited data

Results flagged for a closer look

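A single array stood far from the other 3 of its arm in 2 of the 40 sets of 4 arrays (10 genes in 4 arms), and about 1 such set in 20 is expected by chance. The Orm2 signal of MET_FLOX_canertinib on day 7 was 18142, against 4112 to 4926 on the other days of that arm. The Orm3 signal of MET_KO on day 7 was 1785, against 336 to 444 on its other days. Both are day 7 arrays, and an arm's arrays differ by day, so these are no replicates in the strict sense.

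Both genotype pairs turned their direction between days in Orm2 and Lbp. The mean canertinib difference of Orm2 was 2.40 on day 0 and -1.44 on day 7, a change of -3.84 (adjusted p = 0.632 by limma). Against day 2, where it was 1.12, the change to day 7 was -2.56, which was not tested. For Lbp the mean difference was 0.62 on day 2 and -0.49 on day 7, a change of -1.11 that was not tested either. Knockout minus flox was positive on all 4 days under canertinib and negative on all 4 days without it for Lbp, a difference of 1.05 whose interaction term was not called (adjusted p = 0.961).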

How the results depend on the processing

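The 11 called differences of single genes were each recomputed under 27 alternatives, which gave 297 values, of which 209 stayed called, 88 did not and 0 changed direction. Of the 10 genes, 5 were called for the canertinib arms, 3 for MET_KO_canertinib against MET_KO, 2 for MET_FLOX_canertinib against MET_FLOX and 1 for MET_KO_canertinib against MET_FLOX. In that order the counts were 0, 0, 0 and 0 once the array set was a term and 3, 0, 0 and 0 without the 4 day 0 arrays. For the last 3 comparisons they were 1, 0 and 0 without the filter and 1, 0 and 0 with no replicate block, which here is the day that pairs the arms. Quantile normalization gave 0 for each of the last 2, and a fit without trend gave 0 for the last. The fit without day 0 was added after the data were seen. Leaving out 1 array gave 4 to 7, 0 to 7, 0 to 2 and 0 to 1 calls in these comparisons, 0 to 1 for the interaction, 0 to 2 for day 7 against day 0 and 0 to 3 for the day 7 and day 14 changes with canertinib.

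The canertinib arms called 4699 of all genes, 5053 after centring, 2890 on quantile-normalized values and 15 with a set term, and their median difference over all genes was 0.14 as deposited and -0.24 after centring. No arm has a second array on any day, so the spread between livers of an arm on a day is unknown. On days 0, 2 and 7 the drug and the array set cannot be told apart.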

Other observations

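Some genes outside the 10 shared single arrays with them. Steap4, a metalloreductase gene that inflammation induces in liver, had 4172, 8494, 4783 and 21610 in MET_KO_canertinib and 24178, 4809, 7900 and 6005 in MET_FLOX_canertinib on days 0, 2, 7 and 14, against 2608, 3454, 10146 and 2107 in MET_KO and 2106, 3221, 10628 and 4507 in MET_FLOX. Its highest drug-free arrays were those of day 7, the day on which Saa1, Lcn2 and Orm2 were highest in those arms. Its canertinib difference of 1.04 was not called by limma (adjusted p = 0.0813).

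The 12 macrophage and Kupffer cell markers gave a median of -0.69 for MET_KO against MET_FLOX, and all 12 were negative, with none called and 350 of all genes at an unadjusted p below 0.05. The summed signal of the 3 adipocyte markers tested, Retn, Lpl and Fabp4, was 2756 to 3516 in MET_KO_canertinib, 2469 to 6732 in MET_FLOX_canertinib, 2361 to 5235 in MET_KO and 1503 to 3197 in MET_FLOX. The second Lbp probe set ranged from 19 to 1145 and was above the array median on 8 of 16 arrays. It passed the filter and was not used because the other probe set had the higher mean.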
